A study of Rattus norvegicus with 6 samples.

Results

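The genes described here are 10 genes of the blood-spinal cord barrier, chosen by symbol: Cldn5, Ocln, Tjp1, Pecam1, Cdh5, Slc2a1, Abcb1a, Mfsd2a, Vwf and Plvap. A row with the same gene name was found for 9 of them among the 30957 genes of the table, and all 9 had enough counts to be tested. No row carried the name Pecam1, so that gene was not analysed here.

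The libraries were made from the lumbar enlargement of adult female Wistar rats, on the side of the inoculated tibia and with the meninges removed, 14 days after surgery. The 3 bone cancer pain (BCP) libraries came from rats that had received living Walker 256 cells, a rat mammary carcinoma line, in the medullary cavity of the left tibia. The 3 sham libraries came from rats that had received the same cells after killing by heat, so both groups shared the surgery and an injection of cells. RNA of the whole hemicord was sequenced, and the comparison asks whether a tumor in a distant bone goes along with a different level of barrier transcripts in the spinal cord. The labels do not say whether each library came from 1 rat, so p-values measure the spread between these libraries only.

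Capillaries of the spinal cord, like those of the brain, are lined by endothelial cells that are sealed to each other and carry few vesicles. Claudin-5 and occludin span the membrane at the tight junctions, ZO-1 ties them to the actin cytoskeleton, and VE-cadherin holds the adherens junctions beneath. Nutrients cross through dedicated carriers, foreign compounds are pumped back to the blood, and Mfsd2a keeps transcytosis low, whereas Plvap forms the diaphragms of fenestrae and caveolae in vessels that lack a barrier. Endothelial cells are a small share of the cord, and in such bulk RNA fewer cells of a type and less RNA per cell cannot be told apart.

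Gene counts totaled 11779485 to 15004290 per library, and 14908 genes were tested, with a common biological coefficient of variation of 7.72%. Between libraries of a group, counts differed by 3.61 to 6.33 times the sampling noise (chi-square per degree of freedom), so no library was a copy of another. Levels are given as CPM, the count per 1000000 gene counts of the library after TMM scaling, with SD over n = 3 libraries, and compared only within a gene. Levels of different genes are compared as FPKM, the authors' value per kilobase of transcript.

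Ocln, Plvap and Vwf were higher in the BCP libraries, by 1.85-fold, 1.66-fold and 1.32-fold, and Mfsd2a was lower, at 0.803 of its sham level. The other 5 genes, Cldn5, Tjp1, Cdh5, Slc2a1 and Abcb1a, did not pass the test (edgeR quasi-likelihood, Benjamini-Hochberg adjusted p under 0.05 over all tested genes). Of all tested genes 15.8% were higher and 12.1% were lower in BCP by this criterion, beside 3 higher and 1 lower of the 9 barrier genes. With so few genes, chosen with earlier results known, these counts were not tested against the shares and are not read as an excess. Higher genes made up 56.6% of all calls, 68.0% when libraries were scaled by size only and 47.1% with upper-quartile scaling. No barrier gene passed the 2-fold threshold of the study in this fit or in any of 17 alternative settings, DESeq2 and limma among them, and 4 were under an unadjusted p of 0.05, the same 4. The threshold was passed upward by 6.35% of tested genes and downward by 0.107%. The 3 BCP libraries lay entirely above the 3 sham libraries for 3 genes and entirely below for 1, the same 4 genes, against 21.7% and 19.8% of all tested genes. The median log2 fold change was 0.02 over the 9 barrier genes and -0.01 over all tested genes.

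**Figure D1:**
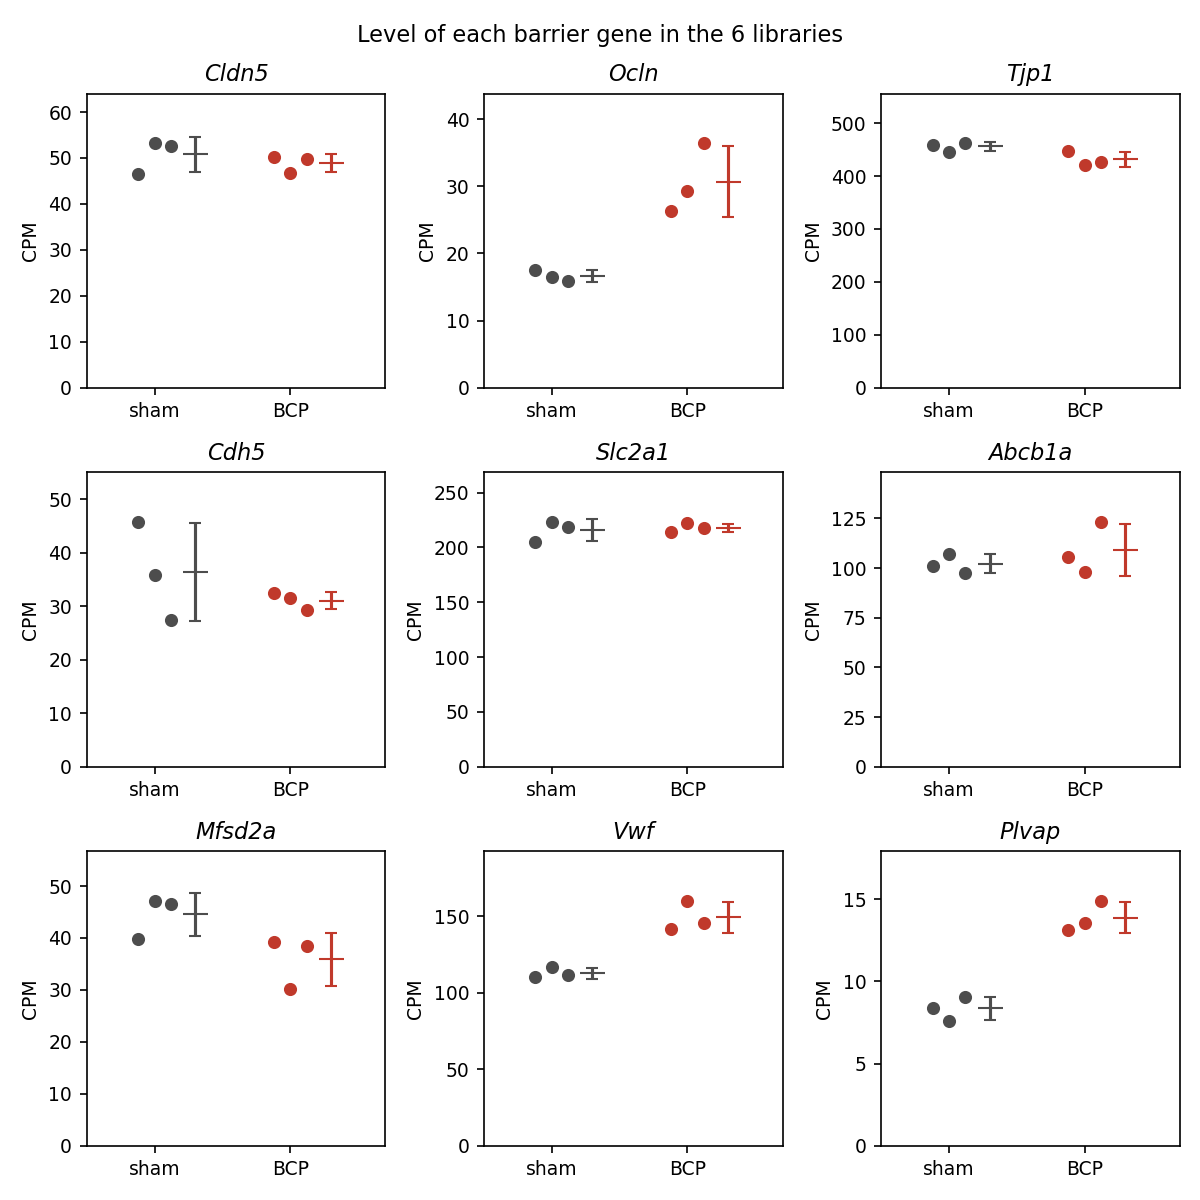
Level of each of the 9 barrier genes in CPM (vertical axis, starting at 0) in the 3 sham libraries (grey points) and the 3 BCP libraries (red points), in the order of library number, with the mean and SD of each group beside the points. Ocln, Vwf and Plvap lie higher in every BCP library than in any sham library, Mfsd2a lies lower, and the other 5 overlap.

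The promoters of Cldn5, a tight junction gene that did not pass the test, and of the genes with the largest differences, Ocln and Plvap, are printed to show the sequence from which each is transcribed. They are RefSeq sequences of the assembly GRCr8, from 250 bases before to 50 bases after the start of the gene, read 5′ to 3′ on the gene's strand, which is the minus strand for all 3. Capitals mark GGAA or its reverse complement TTCC, the core of the sites bound by ETS factors, a family that includes regulators of endothelial genes.
Cldn5, chr11:95718549-95718848: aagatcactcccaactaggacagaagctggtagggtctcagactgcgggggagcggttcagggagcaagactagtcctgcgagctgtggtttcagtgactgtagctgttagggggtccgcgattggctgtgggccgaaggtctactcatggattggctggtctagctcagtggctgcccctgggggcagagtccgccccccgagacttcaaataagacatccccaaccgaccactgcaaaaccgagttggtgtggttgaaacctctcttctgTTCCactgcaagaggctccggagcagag
Ocln, chr2:33441149-33441448: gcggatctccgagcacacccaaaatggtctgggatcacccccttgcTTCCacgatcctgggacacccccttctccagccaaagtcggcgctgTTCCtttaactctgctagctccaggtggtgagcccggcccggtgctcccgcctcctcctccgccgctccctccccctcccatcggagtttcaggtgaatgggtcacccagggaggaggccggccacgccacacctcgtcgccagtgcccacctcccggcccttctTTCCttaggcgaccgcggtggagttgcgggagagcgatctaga
Plvap, chr16:18231230-18231529: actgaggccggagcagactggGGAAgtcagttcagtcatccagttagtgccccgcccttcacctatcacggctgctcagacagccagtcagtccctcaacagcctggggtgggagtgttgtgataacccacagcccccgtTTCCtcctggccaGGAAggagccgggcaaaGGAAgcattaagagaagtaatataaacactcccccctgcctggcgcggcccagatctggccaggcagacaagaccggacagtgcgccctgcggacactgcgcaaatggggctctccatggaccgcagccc
The Cldn5 promoter held 1 match, the Ocln promoter 3 and the Plvap promoter 4. The motif is so short that 95.8% of 33469 rat promoters of this length held at least 1, with a median of 3, so these counts do not set the genes apart. TTCNNNGAA, the motif of STAT factors, which can overlap GGAA, had no match on either strand in these 3 windows and occurred in 8.87% of all promoters. The GC share was 57.7% for Cldn5, 65.3% for Ocln and 61.0% for Plvap, against a median of 51.7%. A RefSeq promoter was matched for 6 of the 10 genes.

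Among the junction genes, Cldn5 (ENSRNOG00000045811, chr11:86356294-86357718 in Rnor_6.0) encodes the claudin that dominates the tight junctions of neural endothelium. Its level was 46.4, 53.4 and 52.5 CPM in sham libraries 1, 2 and 3, and 50.2, 46.7 and 49.8 CPM in BCP libraries 1, 2 and 3. The groups overlapped, with sham library 1 the lowest of the 6. Means were 50.8 ± 3.77 CPM in sham and 48.9 ± 1.93 CPM in BCP (SD, n = 3 each), a log2 fold change of -0.06 (SE 0.07, edgeR adjusted p = 0.629). The 95% interval of the fold ran from 0.864 to 1.07, so the p-value does not show equal levels.

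Ocln (ENSRNOG00000018297, chr2:30527715-30577218) encodes occludin, a tight junction protein also found in epithelia. Ocln was at 17.5, 16.4 and 15.8 CPM in sham libraries 1, 2 and 3, and at 26.3, 29.2 and 36.5 CPM in BCP libraries 1, 2 and 3. Every BCP library was above every sham library, and BCP library 3 was the highest. The mean rose from 16.6 ± 0.877 to 30.7 ± 5.25 CPM (SD, n = 3 each), a log2 fold change of 0.89 (SE 0.11, 95% interval 0.65 to 1.13, edgeR adjusted p = 6.44e-06). Ocln ranked 596 of 14908 by p-value. The spread within BCP, a coefficient of variation of 17.1%, was wider than the 5.29% within sham, and among the fits that left out a library the increase was smallest without BCP library 3, at 0.75 on the log2 scale, where it still passed the test.

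Tjp1 (ENSRNOG00000011077, chr1:126146489-126227469) encodes ZO-1, the scaffold under tight junctions, which glia and neurons also use at other contacts. Tjp1 was at 459, 446 and 463 CPM in the sham libraries and 448, 420 and 426 CPM in the BCP libraries. The ranges touched, since BCP library 1 was above sham library 2. The log2 fold change was -0.08 (SE 0.04, 95% interval -0.17 to 0.01, edgeR adjusted p = 0.182), from means of 456 ± 9.01 and 431 ± 14.6 CPM (SD, n = 3 each).

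Cdh5 (ENSRNOG00000013324, chr19:1023683-1074365) encodes VE-cadherin, the endothelial cadherin of adherens junctions. Cdh5 was at 45.8, 35.8 and 27.4 CPM in sham libraries 1, 2 and 3 and at 32.4, 31.4 and 29.3 CPM in BCP libraries 1, 2 and 3. Sham libraries 1 and 3 bracketed all BCP libraries, and the coefficient of variation was 25.3% in sham, the widest of the 9 genes, and 5.08% in BCP. The log2 fold change of -0.23 (SE 0.18, 95% interval -0.67 to 0.22) did not pass the test (edgeR adjusted p = 0.439, from means of 36.4 ± 9.21 and 31.0 ± 1.58 CPM, SD, n = 3 each). Without sham library 3 it was -0.39 with an edgeR adjusted p of 0.00882, and without sham library 1 it was -0.03, so the value rests on which sham library is kept.

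The transporters come next. Slc2a1 (ENSRNOG00000007284, chr5:138154673-138182897) encodes GLUT1, the carrier that brings glucose across the barrier and that astrocytes also make. Its level was 205, 224 and 219 CPM in the sham libraries and 215, 222 and 218 CPM in the BCP libraries. The BCP libraries lay inside the sham range. The log2 fold change was 0.02 (SE 0.05, 95% interval -0.08 to 0.11, edgeR adjusted p = 0.849), from means of 216 ± 9.89 and 218 ± 3.71 CPM (SD, n = 3 each), and its sign turned with upper-quartile scaling and without sham library 1, to -0.02 in both.

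Abcb1a (ENSRNOG00000008012, chr4:22133521-22425515) encodes P-glycoprotein, the efflux pump that keeps many drugs out of neural tissue. The row was at 101, 107 and 97.7 CPM in sham and at 105, 98.0 and 123 CPM in BCP. The groups overlapped and BCP library 3 stood highest. The log2 fold change was 0.09 (SE 0.07, 95% interval -0.07 to 0.25, edgeR adjusted p = 0.400), from 102 ± 4.80 and 109 ± 13.1 CPM (SD, n = 3 each), and -0.01 without BCP library 3. The row spans 291995 bases, and Abcb1b, the neighbor of Abcb1a in RefSeq, had no row under its own name. Whether the Abcb1a row also holds reads of Abcb1b cannot be told from these values.

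Mfsd2a (ENSRNOG00000014008, chr5:140642885-140657745) encodes the carrier of lysophosphatidylcholine with docosahexaenoic acid, which also restrains caveolar transcytosis in barrier endothelium. Mfsd2a was at 39.8, 47.2 and 46.6 CPM in sham libraries 1, 2 and 3 and at 39.1, 30.1 and 38.4 CPM in BCP libraries 1, 2 and 3. The groups did not overlap, but sham library 1 and BCP library 1 nearly met. The mean fell from 44.5 ± 4.12 to 35.9 ± 5.03 CPM (SD, n = 3 each), a log2 fold change of -0.32 (SE 0.10, 95% interval -0.53 to -0.10, edgeR adjusted p = 0.0256). The direction held in all 17 alternative settings, but in 7 of them the difference did not pass the test. These were the fit without BCP library 2 (adjusted p = 0.148), without sham library 2 (0.118) and without sham library 3 (0.0871), scaling by library size only (edgeR adjusted p = 0.0520) and limma on FPKM in 3 forms (adjusted p = 0.110 to 0.194).

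Vwf (ENSRNOG00000019689, chr4:158088505-158219523) encodes von Willebrand factor, which endothelial cells store in Weibel-Palade bodies and release to capture platelets. Vwf was at 110, 117 and 111 CPM in sham libraries 1, 2 and 3 and at 141, 160 and 146 CPM in BCP libraries 1, 2 and 3. Every BCP library was above every sham library, and the spread was narrow in both groups. The mean rose from 113 ± 3.57 to 149 ± 9.85 CPM (SD, n = 3 each), a log2 fold change of 0.41 (SE 0.05, 95% interval 0.29 to 0.52, edgeR adjusted p = 1.01e-05).
Megakaryocytes and platelets also carry Vwf RNA. Of 10 platelet and megakaryocyte markers 2 were tested and both rose, the integrin genes Itga2b (log2 fold change 3.35) and Itgb3 (1.16), while Ppbp and Gp9 were at 0 counts in all 6 libraries. The summed level of this list was 4.47 to 6.41 CPM in sham and 13.6 to 17.3 CPM in BCP. Itga2b went from 0.599 ± 0.245 to 6.12 ± 0.665 CPM and Itgb3 from 3.07 ± 0.926 to 6.77 ± 1.19 CPM (SD, n = 3 each), whereas Gp1ba, Gp1bb and Treml1, too low to be tested, had means of 0.509, 0.187 and 0.137 CPM in sham and 0.504, 0.149 and 0.107 CPM in BCP. At so low a sham level Itga2b can pass the expression filter through the BCP libraries alone, so its rise was partly fixed in advance. The part of this list in the Vwf difference was not tested.

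Plvap (ENSRNOG00000017676, chr16:19906318-19918689) encodes the diaphragm protein of fenestrated endothelium, which barrier endothelium normally keeps low. Plvap was at 8.39, 7.61 and 9.05 CPM in sham libraries 1, 2 and 3 and at 13.1, 13.6 and 14.9 CPM in BCP libraries 1, 2 and 3. The groups were apart, and the gene had 109 to 197 counts per library. The mean rose from 8.35 ± 0.722 to 13.9 ± 0.940 CPM (SD, n = 3 each), a log2 fold change of 0.73 (SE 0.13, 95% interval 0.45 to 1.01, edgeR adjusted p = 0.000294). Vessels of the meninges and the choroid plexus also make Plvap. Of 8 tested markers of meninges and fibroblasts 0 passed in edgeR and 0 in DESeq2, and 1 was lower at an unadjusted p under 0.05, with a median log2 fold change of -0.03, a summed level of 164 to 189 CPM in sham and 178 to 240 CPM in BCP, and Col1a2 at 0 counts in all libraries. Its most abundant genes, Pdgfra and Col1a1, had log2 fold changes of 0.10 and 0.85 (edgeR adjusted p = 0.202 and 0.380). Of 6 tested markers of ependyma and choroid plexus 0 passed in edgeR and 0 in DESeq2, 1 was higher at an unadjusted p under 0.05, and the list summed to 13.2 to 14.1 CPM in sham and 11.9 to 15.9 CPM in BCP, with Rarres2 and Ccdc153, the most abundant, at log2 fold changes of -0.03 and -0.43 (edgeR adjusted p = 0.938 and 0.368).

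**Figure D2:**
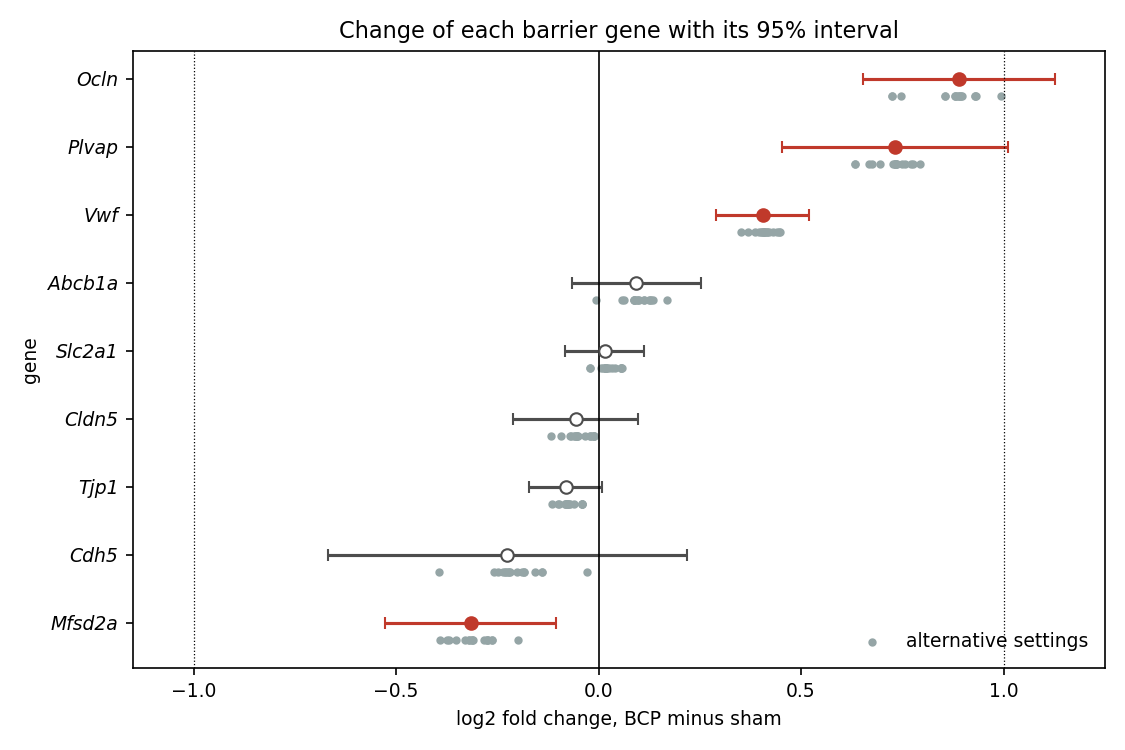
Log2 fold change of BCP minus sham (horizontal axis) of each barrier gene (vertical axis) with its 95% interval, filled red where the edgeR adjusted p was under 0.05 and open grey otherwise, with the values under the 17 alternative settings as small grey points below and dotted lines at 2-fold. The alternatives of Ocln, Plvap and Vwf stay to the right of 0, and those of Mfsd2a to the left.

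The order of transcript levels per length was nearly shared by the groups, with 2 pairs of neighbors exchanged. In sham, mean FPKM was 76.1 for Slc2a1, 58.7 for Tjp1, 35.1 for Cldn5, 20.6 for Mfsd2a and 12.6 for Vwf, followed by Cdh5 at 7.25, Abcb1a at 6.76, Plvap at 3.47 and Ocln at 2.76. Only Cdh5 and Abcb1a among these neighbors overlapped in their sham libraries. The place of Abcb1a is uncertain in both groups. Its FPKM implies a length of 14879 bases, the longest among the barrier genes, and the row may also hold Abcb1b. In BCP the 3 highest kept their places at 79.1, 57.1 and 34.7 FPKM. Vwf at 17.1 FPKM then stood beside Mfsd2a at 17.0, and these overlapped, whereas their sham libraries had been apart. Abcb1a at 7.42 FPKM now stood before Cdh5 at 6.36, and Plvap at 5.92 and Ocln at 5.25 FPKM overlapped with each other, as did Cdh5 with Plvap. Slc2a1, Tjp1 and Cldn5, the 3 highest in both groups, did not pass the test, and Plvap and Ocln, the 2 lowest in sham, had the largest fold changes.

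To set the genes against an endothelial gene that did not pass the test, each count was divided by the Cldn5 count of the same library, a ratio chosen after the values had been seen and given without a test. For Ocln the sham ratios were 0.378, 0.308 and 0.301, in order of library number, whereas the BCP ratios were 0.524, 0.626 and 0.734, with no overlap. The mean Plvap ratio was 0.165 ± 0.020 in sham and 0.284 ± 0.020 in BCP, or 1.72 times as high, and that of Vwf was 2.22 ± 0.128 and 3.06 ± 0.329 (SD, n = 3 each), or 1.38 times as high. The Mfsd2a ratio was 0.857, 0.885 and 0.888 in sham and 0.779, 0.645 and 0.772 in BCP, again without overlap. The ratios of Tjp1, Cdh5, Slc2a1 and Abcb1a overlapped between groups. The groups were apart in 4 of the 8 ratios, for the 4 genes that passed the test. Since Cldn5 itself differed little between the groups, the ratios largely repeat the differences in CPM and give no separate support. The share of all genes apart in this ratio was not computed.

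**Figure D3:**
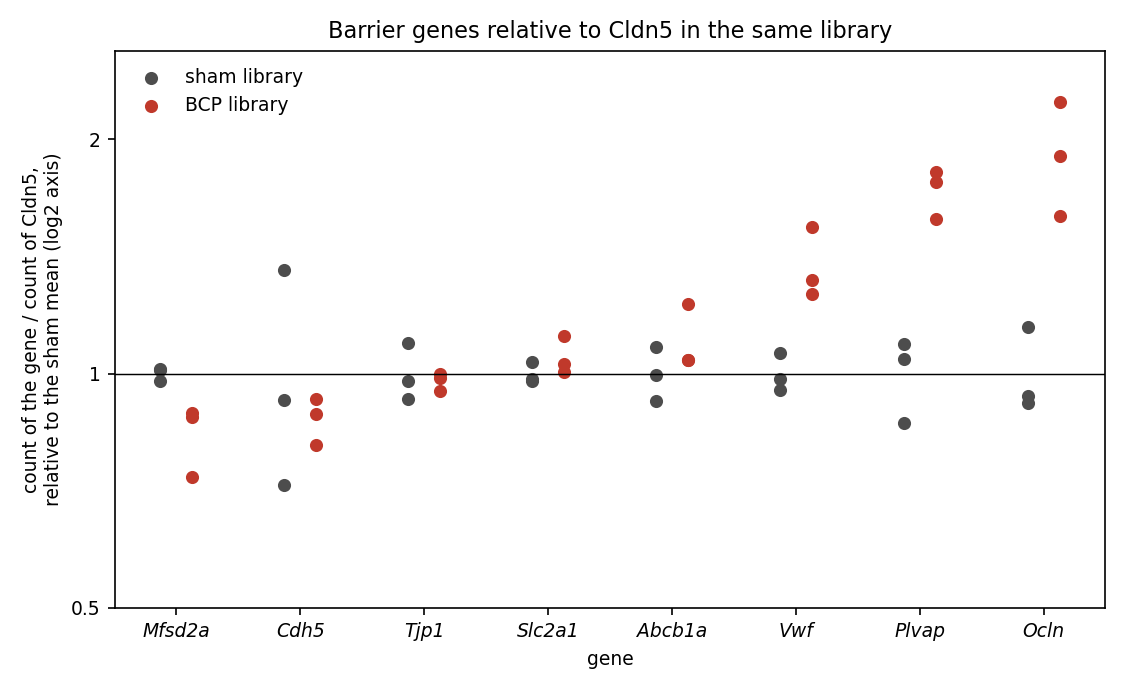
Count of each barrier gene divided by the Cldn5 count of the same library, relative to the mean of the 3 sham libraries (vertical axis, log2 scale), with sham libraries in grey and BCP libraries in red. Ocln, Plvap and Vwf lie above every sham library in all 3 BCP libraries, and Mfsd2a below.

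The genes whose profile over the 6 libraries was most like that of Cldn5 were Unc45a, Dpp3 and AC113635.3, at a root mean square distance of 0.01, 0.01 and 0.02 in centred log2 CPM among 14449 genes compared, where the median distance was 0.16. For Plvap they were Zfp36l1, an RNA-binding protein that promotes mRNA decay, Slc7a2, a carrier of cationic amino acids, and Atm, the DNA damage kinase, at 0.04, 0.05 and 0.06 against a median of 0.41. Zfp36l1, for example, was at 50.2, 48.3 and 52.9 CPM in sham and 77.8, 85.5 and 90.5 CPM in BCP. Ocln was the 175th and Vwf the 564th gene by likeness to Plvap. With 6 libraries in 2 groups the distances from Plvap mostly describe the size of the group difference. Those from Cldn5, which hardly differed between the groups, mostly describe the spread between libraries. In the KEGG annotation deposited with the table, Cldn5, Ocln and Tjp1 shared the tight junction pathway, which holds 100 of the 4816 annotated tested genes, and Cldn5, Ocln and Cdh5 shared cell adhesion molecules (109 genes) and leukocyte transendothelial migration (85 genes).

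Genes around the barrier were taken from 8 lists with 146 distinct genes, of which 131 were tested, 20 rose and 14 fell (edgeR adjusted p under 0.05), against the 15.8% higher and 12.1% lower of all tested genes. Past 2-fold, 7 were higher and 0 lower, and 6 of these 7 were genes of endothelial activation. With scaling by library size only, 9 fell in place of 14, and in DESeq2 20 rose and 10 fell.

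Junction partners, the other claudins, adhesion molecules and scaffolds, had 15 tested genes, of which 0 rose (0 in DESeq2, and 1 higher at an unadjusted p under 0.05 in edgeR), 2 fell (1 in DESeq2) and 13 did not pass, with a median log2 fold change of -0.06. Those that fell were Jam3, a junctional adhesion molecule, from 58.9 to 66.5 CPM in sham down to 47.8 to 52.7 CPM in BCP (log2 fold change -0.31, edgeR adjusted p = 0.00242), and the claudin gene Cldn12 (log2 fold change -0.21, edgeR adjusted p = 0.0277). Of Cldn5, Ocln, Tjp1, Cdh5 and these 15 partners, only Ocln passed the test upward, where 15.8% of all tested genes did. Whether this sets Ocln apart was not tested. Of 24 tested endothelial identity genes 2 rose (2 in DESeq2), 2 fell (1 in DESeq2) and 20 did not pass, with a median of 0.03 and a summed level of 849 to 859 CPM in sham and 865 to 897 CPM in BCP. Cd34, a sialomucin that blood progenitors and fibroblasts also carry, rose from 16.2 ± 2.25 to 40.4 ± 7.54 CPM (SD, n = 3 each, edgeR adjusted p = 0.000128). Podxl, its relative podocalyxin, rose by 0.37 on the log2 scale, while S1pr1, a sphingosine-1-phosphate receptor that astrocytes also make, and the endothelial guidance receptor Robo4 fell by 0.21 and 0.34.

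Of 18 tested barrier transporters and receptors 5 rose, 1 fell and 12 did not pass, with a median log2 fold change of 0.14. Slco2b1, an organic anion carrier that microglia also make, rose from 36.9 ± 3.08 to 63.3 ± 8.72 CPM (SD, n = 3 each, edgeR adjusted p = 1.02e-05). Slc7a5 and Slc3a2, the light and heavy chains of the large neutral amino acid carrier, rose by 0.37 and 0.21 on the log2 scale, and Insr, the insulin receptor, fell by 0.19. Abcb1b and Slc40a1 had no row. Of 15 tested Wnt and transcription factor genes of barrier induction 1 rose (1 in DESeq2), 3 fell (only 1 in DESeq2) and 11 did not pass, with a median of -0.07. Wnt7b, a ligand by which neural cells induce the barrier, fell from 22.6 ± 2.30 to 17.0 ± 1.32 CPM (SD, n = 3 each, edgeR adjusted p = 0.00565). The receptor genes Fzd4 and Lrp5 fell by 0.29 and 0.23 on the log2 scale (edgeR adjusted p = 0.0289 and 0.0385), and the Wnt target and inhibitor Apcdd1 rose by 0.29.

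Of 14 tested caveolar and permeability genes 4 rose (3 in DESeq2), 1 fell (1 in DESeq2) and 9 did not pass, with a median log2 fold change of 0.16. Nrp1, a co-receptor of VEGF and semaphorins, rose from 56.0 ± 1.23 to 89.7 ± 2.57 CPM (SD, n = 3 each, edgeR adjusted p = 2.38e-08), its relative Nrp2 rose by 0.37 and the caveolin gene Cav2 by 0.32 on the log2 scale. Apln, the peptide apelin, fell from 49.5 ± 3.64 to 31.6 ± 2.88 CPM (SD, n = 3 each, edgeR adjusted p = 6.61e-06). Of 16 tested pericyte and smooth muscle genes 1 rose, 2 fell and 13 did not pass, with a median of 0.06. The actin-binding gene Tagln rose from 36.6 ± 0.945 to 51.3 ± 2.10 CPM (SD, n = 3 each, edgeR adjusted p = 3.12e-05), and Vtn, which encodes vitronectin, and the receptor gene Notch3 fell by 0.42 and 0.28 on the log2 scale.

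Of 20 tested basement membrane and astrocyte endfoot genes 0 rose (0 in DESeq2, and 1 higher at an unadjusted p under 0.05 in edgeR), 3 fell and 17 did not pass, with a median log2 fold change of -0.09. Kcnj10, the potassium channel Kir4.1 of the endfeet, fell from 205 ± 13.9 to 152 ± 7.26 CPM (SD, n = 3 each, edgeR adjusted p = 5.21e-06), and the laminin gene Lama2 fell by 0.24 on the log2 scale. Aqp4, the water channel of the endfeet, singled out after its values were seen, was at 2415 CPM in BCP library 1 and at 354 to 379 CPM in the other 5 libraries, so its log2 fold change of 1.53 (edgeR adjusted p = 0.342) rests on 1 library.

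Endothelial activation and leukocyte entry genes had the most higher members of the 8 lists. Of 10 tested genes 7 rose (8 in DESeq2), 6 of them past 2-fold in edgeR, 0 fell (0 in DESeq2, and 1 lower at an unadjusted p under 0.05 in edgeR) and 3 did not pass, and the median log2 fold change was 1.12. Icam1, the ligand of leukocyte integrins, was at 6.94, 4.82 and 4.05 CPM in sham libraries 1, 2 and 3 and at 23.8, 31.4 and 32.6 CPM in BCP libraries 1, 2 and 3, without overlap (log2 fold change 2.49, SE 0.18, edgeR adjusted p = 6.76e-07). Vcam1, another such ligand, rose from 24.7 ± 0.903 to 51.4 ± 6.75 CPM (SD, n = 3 each, edgeR adjusted p = 2.82e-08), and the TNF receptor gene Tnfrsf1a rose from 24.6 ± 2.43 to 49.6 ± 4.94 CPM (SD, n = 3 each, edgeR adjusted p = 5.73e-08). Many of these genes are not particular to endothelium, since microglia, astrocytes and leukocytes make them as well. The gene of E-selectin, Sele, which activated endothelium makes, had a log2 fold change of 0.36 (SE 0.45) and did not pass (edgeR adjusted p = 0.614). Of the 14 genes in the list, Selp, Madcam1 and Csf3 were too low to be tested, and Ackr1 had no row. Selp had at most 7 counts in a library, and Madcam1 and Csf3 at most 1.

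**Figure D4:**
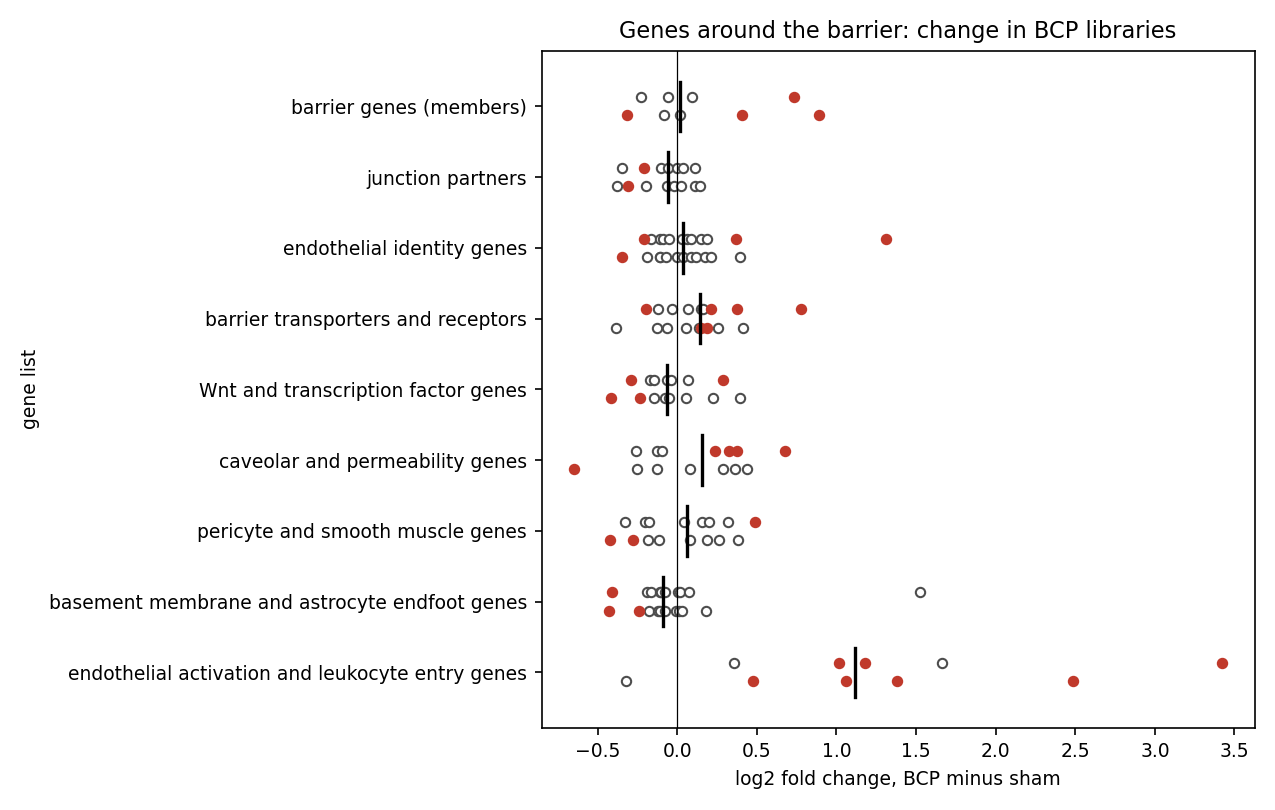
Log2 fold change of BCP minus sham (horizontal axis) of each tested gene of the barrier genes and of the 8 lists around them (vertical axis), filled red where the edgeR adjusted p was under 0.05 and open grey otherwise, with a black line at the median of each list. The medians lie between -0.09 and 0.16 except for endothelial activation and leukocyte entry genes, at 1.12, and the open point at 1.53 is Aqp4.

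Markers of other cells moved with the groups, and their part in the differences of barrier genes was not tested. Leukocyte and blood lists rose. Of 9 tested microglia markers 5 rose, with a summed level of 231 to 293 CPM in sham and 604 to 710 CPM in BCP and Siglech at 0 counts throughout. The most abundant of them, Csf1r and Itgam, rose by 1.44 and 1.84 on the log2 scale. All 8 tested T cell markers, of 10 in the list, rose, with a median log2 fold change of 5.80. The list summed to 6.08 to 6.77 CPM in sham and 52.3 to 58.7 CPM in BCP. Cd4 and Lck were up by 2.10 and 3.34 on the log2 scale. Of 10 neutrophil and monocyte markers only 4 were tested, and all 4 rose. Their list summed to 18.1 to 25.1 CPM in sham and 163 to 225 CPM in BCP. Genes this low in sham can pass the expression filter through the BCP libraries alone. That every tested gene of both lists rose was therefore partly fixed in advance. Among the neutrophil and monocyte markers, Csf3r rose by 1.66 on the log2 scale. Itgal, an integrin that T cells share, rose from 10.6 ± 2.67 to 154 ± 27.9 CPM (SD, n = 3 each). All 5 red blood cell markers rose, from 245 to 261 up to 472 to 684 CPM summed, with the globin genes Hba1 and Hba2 up by 1.00 and 1.37 on the log2 scale.
Of 10 tested oligodendrocyte markers 9 fell (median log2 fold change -0.36), Mbp by 0.56, and the list summed to 39884 to 45287 CPM in sham and 28781 to 32018 CPM in BCP. Of 10 tested neuron markers 5 fell (median -0.15), Nefl by 0.18, while Snap25 was at -0.06 (edgeR adjusted p = 0.334), and the list summed to 7401 to 7675 and 6475 to 7152 CPM. Of 10 tested astrocyte markers 6 fell (median -0.21), S100b by 0.37, but Gfap rose by 0.80 and the sum was higher in BCP, at 9404 to 11583 CPM against 8569 to 8873 CPM in sham, with Aqp4 of BCP library 1 included. Of 8 tested Schwann cell and nerve root markers 1 rose, past 2-fold in edgeR (0 rose in DESeq2). Sox10, which oligodendrocytes share, was the 1 that fell, by 0.31 (1 fell in DESeq2, median -0.13). Pmp22 was at -0.21 (edgeR adjusted p = 0.0594), and the sums were 277 to 283 CPM in sham and 222 to 246 CPM in BCP. Of 2 tested markers of carcinoma epithelium, Krt18 and Cldn4 (log2 fold changes 0.82 and -0.21), 0 passed in edgeR, 0 in DESeq2 and 0 at an unadjusted p under 0.05. That list summed to 3.97 to 5.00 CPM in sham and 4.70 to 5.93 CPM in BCP, with Krt5 at 0 counts throughout.

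Within 10 kb of a barrier gene, 15 lncRNA transcripts lay near 7 of the genes, 10 of them overlapping the gene's interval, and 4 had enough counts to be tested. None of the 4 passed (0 at an adjusted and 0 at an unadjusted p under 0.05 in edgeR, and 0 at an adjusted p under 0.05 in DESeq2), where 1.57% of the 12157 tested lncRNAs were higher and 0.395% lower. NONRATT016034.2, at chr2:30505873-30522675 and 5040 bases from Ocln, had 4, 14 and 16 counts in sham libraries 1, 2 and 3 and 32, 9 and 27 counts in BCP libraries 1, 2 and 3 (log2 fold change 1.17, SE 0.60, edgeR adjusted p = 0.466). NONRATT011382.2, 4089 bases from Plvap, had 22, 32 and 28 counts in sham and 0, 16 and 26 counts in BCP (log2 fold change -0.83, SE 0.87, edgeR adjusted p = 0.764). The groups overlapped for both. NONRATT022567.2 near Slc2a1 and NONRATT022595.2 within Mfsd2a had log2 fold changes of 0.20 and -0.28 (edgeR adjusted p = 0.835 and 0.823). The 95% intervals were wide, from -0.22 to 2.57 and from -2.98 to 1.32 for the transcripts near Ocln and Plvap, and from -0.44 to 0.85 and from -1.10 to 0.55 for those near Slc2a1 and within Mfsd2a.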

How the data were processed

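Strand-specific libraries depleted of ribosomal RNA were sequenced from 3 sham and 3 BCP spinal cord samples. Per the labels and the study's methods, Seqtk was used for read filtering, HISAT2 2.0.4 for alignment to Rnor_6.0 and StringTie 1.3.0 for expression. The authors deposited unnormalized counts and FPKM values of genes and lncRNA transcripts in each library. The counter and its use of strand are not given in the sources used here. Groups and replicate numbers came from the sample labels. 48 gene rows had an Ensembl identifier but no symbol and were kept.

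The main test was edgeR 4.0.16 (R 4.3.3), run separately on genes and lncRNAs, with its filter by expression, TMM scaling, a robust quasi-likelihood fit on the group alone and Benjamini-Hochberg adjustment over all tested rows. The prior count for distances between profiles was 2, and genes under a mean of 1 CPM were left out there. Alternatives were DESeq2 1.42.0, limma 3.58.1 with voom, limma on log2(FPKM + 1) and log2(FPKM + 0.1), other scaling and filters, a replicate block and each library left out. The code was tested on simulated data. Plots used matplotlib 3.10.9 (Python 3.11.15).

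The barrier genes, gene lists and tests were chosen with earlier results of these data known. The text names all barrier genes, in each list around the barrier up to 3 genes per direction with the smallest p-values among those that passed, in each list of other cells the most abundant genes and those at 0 counts, the 3 genes most like Cldn5 and Plvap, and tested lncRNAs within 10 kb. Aqp4, Sele, the untested genes Selp, Madcam1 and Csf3, and the markers of platelets are exceptions named after their values were seen where the rule did not pick them. Some genes selected by the rule are not reported here. The smallest library held 11779485 gene counts.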

Additional observations from a re-analysis of the deposited data

How the results depend on the processing

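Ocln, Vwf and Plvap kept their direction and passed the test in all 17 alternatives, with log2 fold changes of 0.72 to 0.99, 0.35 to 0.45 and 0.63 to 0.79, so 3 barrier genes were higher throughout. The number of lower barrier genes, 1, became 0 with library size only and with limma on log2(FPKM + 0.1) and log2(FPKM + 1), with or without the filter, and ranged from 0 to 1 when a library was left out. Without sham library 3 it was 1 because Cdh5 passed and Mfsd2a did not. Signs turned for Slc2a1 (-0.020 with upper-quartile factors, and -0.022 to 0.041 when a library was left out), Abcb1a (-0.0065 to 0.17 when a library was left out) and NONRATT022567.2 (-0.021 to 0.36 when a library was left out), none of which passed in any setting. Over all genes, 1805 lower calls became 966 with limma on log2(FPKM + 0.1), 975 on log2(FPKM + 1) and 752 without the filter. Of 946 genes higher past 2-fold, limma on log2(FPKM + 1) left 626. The 16 genes lower past 2-fold became 6 with at least 10 counts in every library, 37 with no filter, 9, 0 and 3 with limma on log2(FPKM + 0.1), log2(FPKM + 1) and the latter without the filter, and 16 to 33 when a library was left out. Lower genes of the barrier lists went from 14 to 9 with library size only. The share of calls that were higher was 56.6%, against 68.0% with library size only 71.7% to 74.3% with limma on FPKM and 47.1% with upper-quartile factors, where 2134 genes were higher and 2401 lower, and no scaling moved the median of all genes by over 0.1 on the log2 scale. The cause of these changes was not tested. With the replicate number as a block, 2217 genes were higher and 1597 lower, and the calls of the barrier genes did not change. The labels do not say whether the numbers pair the samples. Same-numbered libraries had correlations of -0.11, 0.04 and -0.04 in their deviations, and not every library correlated best with its own number. With so few libraries such correlations cannot exclude a pairing. With 3 libraries per group, differences the size of those of Tjp1 or Abcb1a could not be told from the spread between libraries.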
